A study of Mus musculus with 6 samples.

Results

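The NF-kB genes described here are 10 mouse genes that cover the Rel factors, their inhibitors, a feedback enzyme and a pair of adhesion targets: Rela, Relb, Nfkb1, Nfkb2, Nfkbia, Nfkbie, Tnfaip3, Bcl3, Icam1 and Vcam1. They were named for their roles, with earlier results of these data known. They were found in the gene tables by NCBI gene identifier, and are 10 of the 17254 genes listed in any library. Of the 10, 9 reached a mean of at least 1 FPKM (fragments scaled to transcript length and library total) over the 6 libraries and were tested among 11717 genes, whereas Icam1 did not.

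NF-kB is a family of dimeric transcription factors that are held in the cytoplasm by IkB proteins until a receptor signal makes the IKK kinases mark IkB for destruction. The freed dimers bind kB sites and turn on cytokine, survival and adhesion genes, together with genes of their own inhibitors, which close a negative feedback loop. In neural stem and progenitor cells (NSPCs) the pathway is known to respond to inflammatory signals and to oxidative stress.

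RNA-seq was performed on NSPCs from the subventricular zone of neonatal mice. The methods of the study describe an immortalised Ink/Arf-/- culture kept for 48 h without treatment, with 5 µM paraquat (PQ), which generates superoxide inside cells, or with 5 mM N-acetylcysteine (NAC), a thiol antioxidant. Each group had 2 libraries, named here control 1 and 2, PQ 1 and 2, and NAC 1 and 2, where the number is a name given here. The comparisons ask how a pro-oxidant and an antioxidant each shift the genes from the untreated state, and how the treatments differ from each other.

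Control 1 and PQ 1 carry the labels C57BL/6 and "Ink/Ark knockout", a spin-column RNA extraction and processing notes that name mm9. Control 2, PQ 2, NAC 1 and NAC 2 carry no genotype or strain, a TRIZOL extraction, a BGI sequencer and notes that name mm10, and the PQ dose of PQ 2 comes from the methods alone. For control and PQ the number thus coincides with the labelled set. NAC has libraries with mm10 notes only. Values within the mm9 pair or the mm10 libraries are therefore given beside the main comparison for the NF-kB genes called against control. Nothing in the labels says that the libraries of a group came from separate cultures. The study's reporting summary states that the RNA sequencing was replicated 2 times, without naming separate cultures. The p-values thus measure only the spread between these libraries, which may be technical. The expected counts summed to 9849392 in control 1, 10040827 in control 2, 10388731 in PQ 1, 9680436 in PQ 2, 10698241 in NAC 1 and 9907726 in NAC 2. The 10 most counted genes took 4.80% and 5.03% of the counts in control, 4.72% and 5.03% in PQ, and 3.82% and 4.03% in NAC.

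Cdkn2a, the gene of the deleted Ink/Arf locus, had between 120 and 162 expected counts in every library. A count over the whole gene does not show which exons the reads came from, so it checks nothing about the deletion. Of 15 NSPC markers, 12 had a mean of at least 1 FPKM, led by Vim at 2073 FPKM and Fabp7 at 808 FPKM, whereas Prom1 had at most 4 counts and Dcx at most 7.69 counts in any library. Of 12 microglia and macrophage markers, 2 reached 1 FPKM (P2ry12 at 2.25 and Cd68 at 1.52) and 8 had at most 3 counts in every library. Among the endothelial markers, the usual site of inducible ICAM1 and VCAM1, only Flt1 reached 1 FPKM of 10 genes, at 15.3 FPKM.

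Levels between genes were compared per length, as FPKM. In control the order of the mean FPKM ran from Bcl3 (44.7 and 52.3 in the 2 libraries) through Nfkbia (39.6 and 34.9) and Rela (23.4 and 25.3) to Vcam1 (22.3 and 15.6) and Nfkb2 (16.9 and 17.9). Nfkb1 (11.6 and 13.3), Tnfaip3 (11.9 and 10.9), Relb (6.14 and 5.84) and Nfkbie (3.56 and 3.94) followed. The neighbours Vcam1 and Nfkb2 overlapped between the control libraries, as did Nfkb1 and Tnfaip3, so the order within each of these pairs is not set. Among the genes tested, Bcl3 stood at percentile 85.4 of the control mean and Nfkbie at percentile 18.1. Icam1 was listed at 0 in both control libraries.

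In PQ and NAC the top of this order differed from control. Nfkbia had 61.1 and 53.9 FPKM in PQ and 66.4 and 64.8 FPKM in NAC. Bcl3 had 55.1 and 56.4 FPKM in PQ and 49.8 and 64.1 FPKM in NAC. Nfkbia thus lay above Bcl3 in both NAC libraries, overlapped it in PQ and lay below it in control, as a description with no test of the order.

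**Figure D1:**
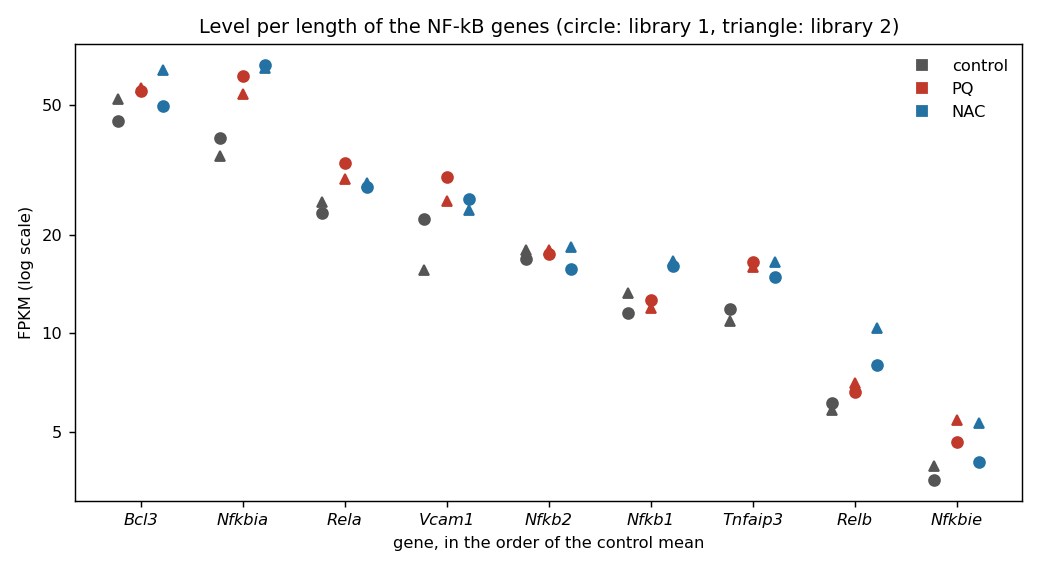
FPKM per library on a log axis for the 9 genes tested, ordered by their control mean, with grey for control, red for PQ and blue for NAC, circles for library 1 and triangles for library 2. Bcl3 and Nfkbia lie at the top and Nfkbie at the bottom, and Icam1, at 0 FPKM in control and PQ, is not drawn.

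The promoter windows of these genes are shown because several of them are known to be switched on by NF-kB itself. RefSeq promoter windows (250 bases before to 50 after a start site, GRCm38.p6) were found for 7 of the 10 genes, in 10 windows. They were Rela, Nfkb2 with 3 windows, Nfkbia, Nfkbie, Tnfaip3 with 2, Bcl3 and Icam1. Relb, Nfkb1 and Vcam1 were not among them. Both strands were searched for GGNNTTTCC and for the degenerate kB consensus of 10 bases, which can share bases with it. GGNNTTTCC occurred in 5.82% and the degenerate consensus in 4.51% of 32851 promoter windows of this length.

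Each motif was found in 7 of the 10 windows and in 5 of the 7 genes. GGNNTTTCC matched in Nfkb2, Nfkbia, Tnfaip3, Bcl3 and Icam1, and the degenerate consensus in Nfkb2, Nfkbia, Nfkbie, Tnfaip3 and Bcl3. The window of Rela held no match to either. The match from 12 to 20 bases after the start site in the second Nfkb2 window is the same stretch as the match from -224 to -216 in the third, since these windows overlap. A match is a description of the letters and not a bound site.

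The bases before the start site of Nfkbia (chr12:55492648-55492897, minus strand), the upstream window of Tnfaip3 (chr10:19015411-19015660, minus strand), the first window of Nfkb2 (chr19:46304487-46304736, plus strand) and Icam1 (chr9:21015690-21015939, plus strand) are printed on the gene strand. They are the windows of the gene with the largest change, of the feedback enzyme, of the gene with the most matches and of the adhesion gene that was not detectable. Capitals mark bases in a match to either motif on either strand.
Nfkbia: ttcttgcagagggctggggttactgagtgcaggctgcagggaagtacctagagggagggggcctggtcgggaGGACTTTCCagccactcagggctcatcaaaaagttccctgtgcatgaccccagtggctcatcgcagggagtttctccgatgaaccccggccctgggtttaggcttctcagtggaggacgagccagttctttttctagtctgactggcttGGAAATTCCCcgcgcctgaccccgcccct
Tnfaip3: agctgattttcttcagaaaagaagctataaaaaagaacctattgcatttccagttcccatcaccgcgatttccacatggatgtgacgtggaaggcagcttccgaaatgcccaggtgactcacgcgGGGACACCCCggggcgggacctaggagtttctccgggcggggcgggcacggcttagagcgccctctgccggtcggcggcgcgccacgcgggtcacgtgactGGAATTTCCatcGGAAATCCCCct
Nfkb2: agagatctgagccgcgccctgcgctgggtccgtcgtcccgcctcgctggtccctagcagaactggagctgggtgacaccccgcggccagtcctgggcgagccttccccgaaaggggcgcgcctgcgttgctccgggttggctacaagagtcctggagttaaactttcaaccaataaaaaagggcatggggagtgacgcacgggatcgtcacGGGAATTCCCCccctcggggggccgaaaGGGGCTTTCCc
Icam1: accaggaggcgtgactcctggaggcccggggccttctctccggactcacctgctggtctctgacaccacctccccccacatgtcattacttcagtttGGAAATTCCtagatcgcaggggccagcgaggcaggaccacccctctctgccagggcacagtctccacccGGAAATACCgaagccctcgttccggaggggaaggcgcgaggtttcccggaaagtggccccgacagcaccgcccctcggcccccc

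In Nfkbia, GGNNTTTCC matched as GGACTTTCC from -178 to -170 and on the other strand from -29 to -21, where the gene strand reads GGAAATTCC. In Tnfaip3 it matched from -24 to -16 and from -12 to -4. In Icam1 it matched from -153 to -145 and from -84 to -76, and the degenerate consensus had no match. The first Nfkb2 window held 4 matches to the degenerate consensus, between -39 and -2, some of which overlap.

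**Figure D2:**
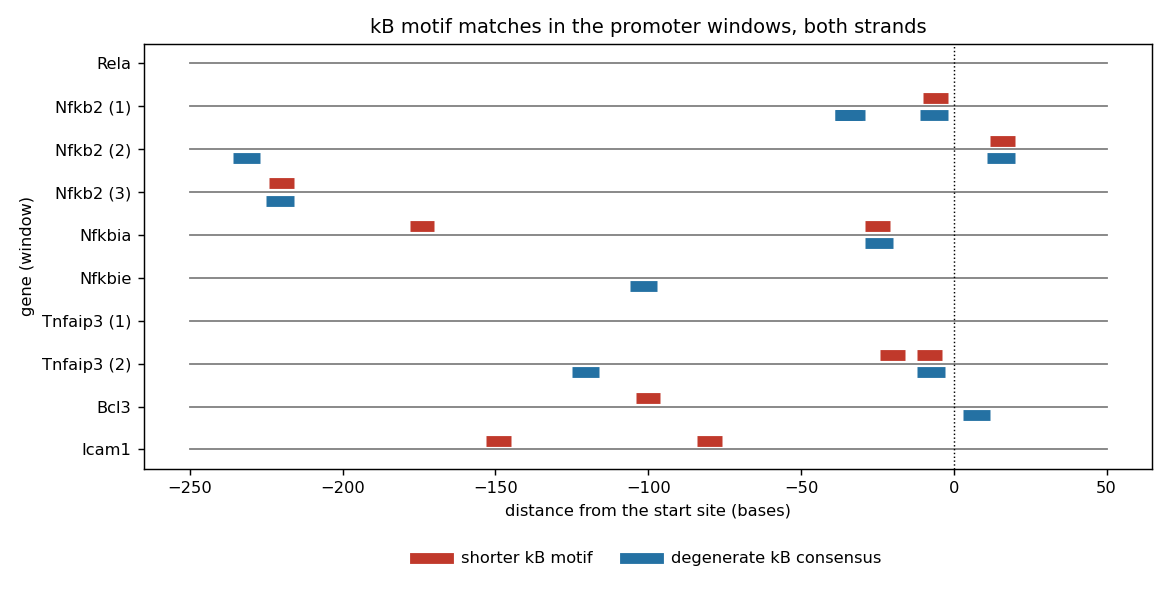
Matches in the promoter windows, by distance from the start site in bases, with red for GGNNTTTCC and blue for the degenerate kB consensus, both strands, and a line per window. Of the 10 windows, 7 hold each motif, and the window of Rela and the first of Tnfaip3 hold neither.

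A gene was called when the edgeR quasi-likelihood F test gave an adjusted p under 0.05 (Benjamini-Hochberg over all 11717 genes). In PQ against control, 4 of the 9 genes tested were called higher (Nfkbia, Vcam1, Tnfaip3 and Rela) and 0 lower, where 9.76% of all genes tested were called higher and 9.45% lower. At an unadjusted p under 0.05, edgeR gave 5 higher and 0 lower, and DESeq2 and limma each called 4 higher and 0 lower. Leaving out 1 library gave 2 to 4 of the 9, the fewest without PQ 1, where the calls over all genes went from 2250 to 866. The median log2 fold change of the 9 genes was 0.34, beside -0.00 over all genes tested.

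In NAC against control, 4 of the 9 were called higher (Nfkbia, Relb, Tnfaip3 and Nfkb1) and 0 lower, where 9.01% of all genes tested were called higher and 9.64% lower. DESeq2 called 2 of them higher and 0 lower, limma 4 higher and 0 lower, and edgeR at an unadjusted p under 0.05 gave 5 higher and 0 lower. Leaving out 1 library gave 1 to 4 of the 9, the fewest without NAC 2, and from 1286 to 2126 calls over all genes beside 2186 with all libraries. The median log2 fold change was again 0.34, beside -0.00 over all genes tested. Both comparisons use the same control libraries, so a control library that is low raises both. In PQ against NAC, Nfkb1 alone was called, lower in PQ, where 16% of all genes tested were called higher and 15.7% lower. Leaving out 1 library gave 0 to 2 of the 9, the fewest without PQ 2, and from 2343 to 4207 calls over all genes beside 3708. No gene of the 9 was called higher there by edgeR, DESeq2 or limma, or at an unadjusted p under 0.05 by edgeR.

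The RNA comes from whole cultures, so a change in the share of cells that express a gene cannot be told apart from a change in RNA per cell.

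**Figure D3:**
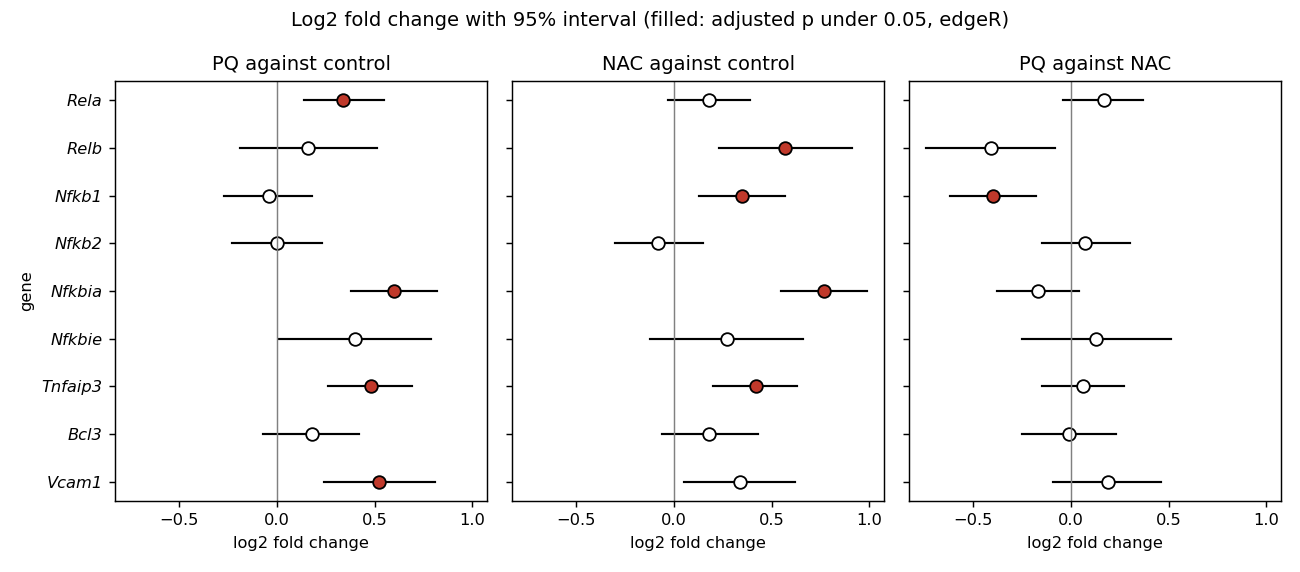
Log2 fold change by edgeR with its 95% interval for the 9 genes in PQ against control, NAC against control and PQ against NAC, with filled points for adjusted p under 0.05. Nfkbia has the largest value in both comparisons with control (0.60 and 0.77), Nfkb2 lies near 0 in all 3 panels, and Nfkb1 is the only filled point in PQ against NAC.

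**Figure D4:**
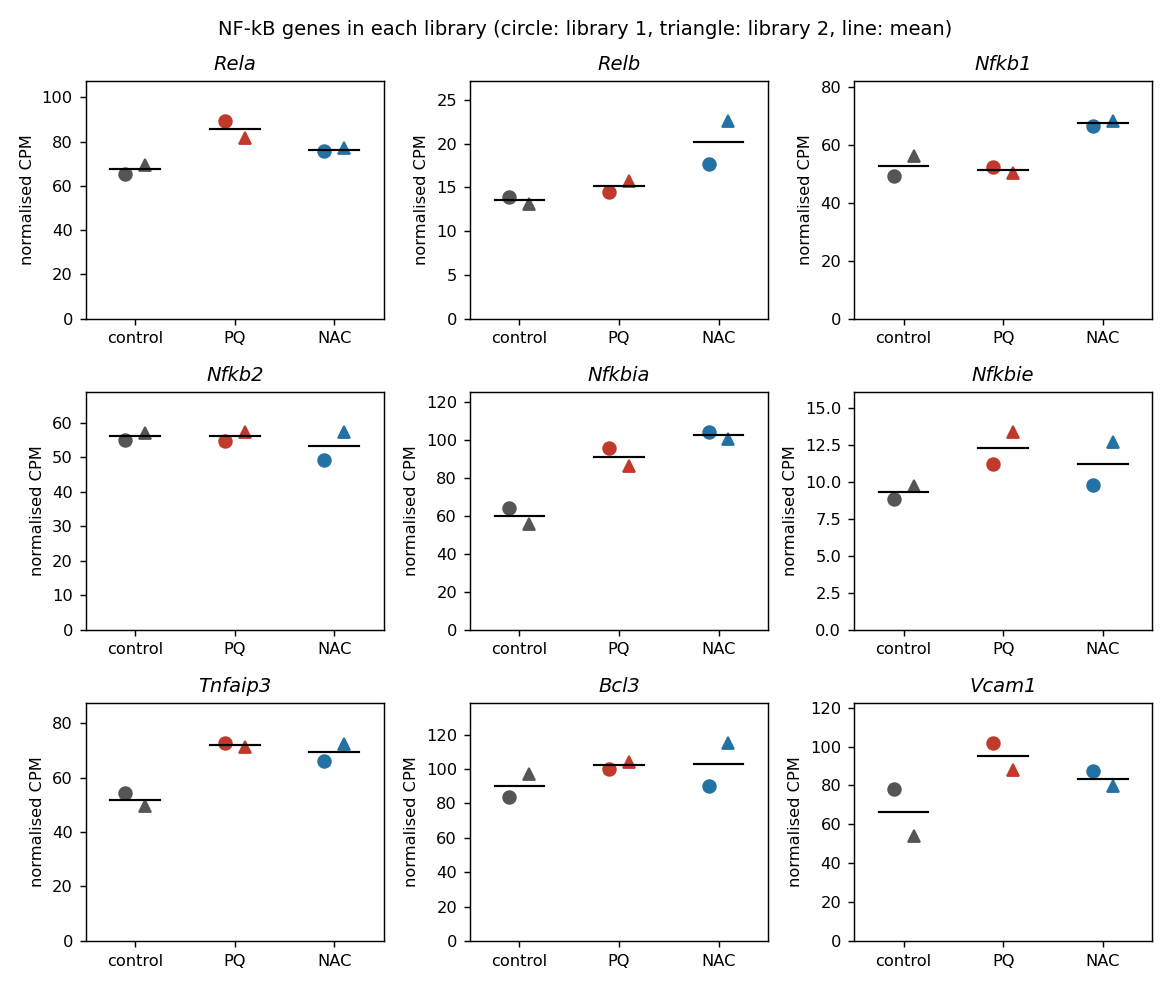
TMM-normalised CPM for the 9 genes, from 0, with circles for library 1, triangles for library 2 and a line at the mean of each group. For Rela, Relb, Nfkbia, Nfkbie, Tnfaip3 and Vcam1 all treated libraries lie above both control libraries, for Relb, Nfkbie and Vcam1 in part by little. For Nfkb2 the groups overlap.

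Rela encodes the activating subunit of the classical NF-kB dimer (NCBI gene 19697; chromosome 19 of mm9 from 5637483 to 5648130, plus strand). It had 65.3 and 69.6 normalised CPM (counts scaled to library total after TMM normalisation) in control, 89.5 and 81.8 in PQ and 75.6 and 77.0 in NAC. Both PQ libraries lay above both NAC libraries, which in turn lay above both control libraries. The group values were 67.5 ± 3.08, 85.6 ± 5.45 and 76.3 ± 0.992 normalised CPM (SD, n = 2 each). In PQ against control Rela was 1.27 times control, with a log2 fold change of 0.34 (SE 0.10, adjusted p = 0.0204, edgeR). The call rested on single libraries, since the adjusted p was 0.22 without PQ 1 and 0.0948 without control 1, at log2 fold changes between 0.28 and 0.41 over the alternatives. In NAC against control the log2 fold change was 0.18 (95% interval -0.03 to 0.39, adjusted p = 0.242), and in PQ against NAC it was 0.17 (interval -0.04 to 0.37, adjusted p = 0.214). Within the mm9 pair PQ minus control was 0.45 on the log2 scale, and within the mm10 libraries 0.23.

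Relb encodes the transactivating partner of the noncanonical pathway (NCBI gene 19698; chromosome 7 from 20191566 to 20214787, minus strand). Its normalised CPM were 14.0 and 13.1 in control, 14.5 and 15.8 in PQ and 17.6 and 22.6 in NAC. The NAC libraries lay above all others and apart from each other, and the lowest PQ library lay close to the highest control library. In NAC against control the log2 fold change was 0.57 (SE 0.16, adjusted p = 0.0173, edgeR). This call was lost with DESeq2 (adjusted p = 0.0565), with the build in the notes as a covariate (0.0508), without NAC 2 (0.224) and without control 2 (0.0608), over a range of 0.00456 to 0.224. Against control 2, NAC 1 and NAC 2 differed by 0.42 and 0.77 on the log2 scale. In PQ against control the log2 fold change was 0.16 (95% interval -0.19 to 0.51, adjusted p = 0.558). PQ against NAC gave -0.41 (interval -0.74 to -0.08, adjusted p = 0.0559), which passed the threshold in 5 of 13 alternative fits, such as without NAC 1 (0.0304).

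Nfkb1 encodes the precursor of the DNA-binding partner of RelA (NCBI gene 18033; chromosome 3 from 135247619 to 135354511, minus strand). It had 49.3 and 56.2 normalised CPM in control, 52.2 and 50.2 in PQ and 66.6 and 68.3 in NAC. Both NAC libraries lay above all the others, while the PQ values lay between those of the control libraries. PQ against NAC gave a log2 fold change of -0.40 (SE 0.10, adjusted p = 0.00726, edgeR), which was called in 12 of 13 alternative fits and lost without PQ 2 (adjusted p = 0.0669). NAC against control gave 0.35 (SE 0.10, adjusted p = 0.0234, edgeR). That call was less firm: it was lost with DESeq2 (adjusted p = 0.0544), with the build in the notes as a covariate (0.0982), and without control 1 (0.158), NAC 1 (0.0891) or NAC 2 (0.123), over a range of 0.0107 to 0.158. Against control 2, the control library with mm10 notes, NAC 1 and NAC 2 differed by 0.24 and 0.28 on the log2 scale. PQ against control gave -0.04 (95% interval -0.27 to 0.18, adjusted p = 0.829).

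Nfkb2 encodes the precursor that pairs with RelB in the noncanonical pathway (NCBI gene 18034; chromosome 19 from 46379227 to 46386580, plus strand). Its normalised CPM were 55.0 and 57.1 in control, 54.6 and 57.3 in PQ and 49.2 and 57.2 in NAC. The groups overlapped, and the spread within NAC was larger than any difference between group means. PQ was 0.999 times control (95% interval 0.853 to 1.17, adjusted p = 0.995, edgeR) and NAC 0.949 times control (interval 0.811 to 1.11, adjusted p = 0.690). Its annotated span overlaps Psd on the opposite strand, so its counts may include reads of Psd. The methods name a stranded library kit, the labels of the TRIZOL libraries describe a random-primed preparation, and whether strand was used in counting is not given in the sources used here.

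Nfkbia encodes IkB alpha, the inhibitor that is resynthesised fastest after NF-kB enters the nucleus (NCBI gene 18035; chromosome 12 from 56590398 to 56593634, minus strand). It is the gene whose promoter holds the matches at -178 and -29. It had 64.1 and 55.9 normalised CPM in control, 95.9 and 86.1 in PQ and 104.2 and 100.6 in NAC. Every treated library lay above both control libraries, and both NAC libraries lay above both PQ libraries. The group values were 60.0 ± 5.83 in control, 91.0 ± 6.95 in PQ and 102.4 ± 2.53 in NAC (normalised CPM, SD, n = 2 each). PQ was 1.52 times control, a log2 fold change of 0.60 (SE 0.11, adjusted p = 0.000566, edgeR). NAC was 1.71 times control, a log2 fold change of 0.77 (SE 0.10, adjusted p = 3.12e-05, edgeR). Both calls held in all 13 alternative fits, with log2 fold changes from 0.51 to 0.70 in PQ and from 0.68 to 0.87 in NAC. PQ against NAC gave -0.17 (95% interval -0.38 to 0.04, adjusted p = 0.222).

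The rise of Nfkbia in PQ was of like size in the differently labelled libraries. PQ minus control was 0.58 on the log2 scale within the mm9 pair and 0.62 within the mm10 libraries. NAC has no library with mm9 notes, and NAC 1 and NAC 2 lay 0.90 and 0.85 above control 2, the lower control library. Control 2 lay 0.20 below control 1, a difference smaller than any of these. The part of the labelled set in the NAC values was not tested.

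Nfkbie encodes IkB epsilon, an inhibitor that acts more slowly (NCBI gene 18037; chromosome 17 from 45692665 to 45700118, plus strand). It was the gene with the lowest level per length of the 9. It had 8.85 and 9.70 normalised CPM in control, 11.2 and 13.4 in PQ and 9.75 and 12.7 in NAC. All treated libraries lay above both control libraries, NAC 1 only just, and the treated groups overlapped each other. In expected counts these were 85 and 96 in control, 117 and 128 in PQ and 105 and 128 in NAC. The log2 fold change was 0.40 in PQ (SE 0.19, 95% interval 0.01 to 0.79, adjusted p = 0.148, edgeR) and 0.27 in NAC (interval -0.12 to 0.66, adjusted p = 0.354), both against control. Neither passed the threshold in any of the 13 alternative fits.

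Tnfaip3 encodes an enzyme that edits ubiquitin chains and stops signalling upstream of the IKK complex, the second feedback loop among these genes (NCBI gene 21929; chromosome 10 from 18720716 to 18735463, minus strand). It had 54.3 and 49.4 normalised CPM in control, 72.8 and 71.4 in PQ and 66.1 and 72.4 in NAC. All treated libraries lay above both control libraries, and the PQ values and the higher NAC value were close together. The group values were 51.9 ± 3.48, 72.1 ± 0.947 and 69.3 ± 4.46 normalised CPM (SD, n = 2 each). PQ was 1.39 times control, a log2 fold change of 0.48 (SE 0.10, adjusted p = 0.00334, edgeR), called in all 13 alternative fits. NAC was 1.33 times control, a log2 fold change of 0.42 (SE 0.10, adjusted p = 0.00777, edgeR), called in 12 of 13 and lost without NAC 2 (adjusted p = 0.0913). PQ against NAC gave 0.06 (95% interval -0.15 to 0.27, adjusted p = 0.704). PQ minus control was 0.42 on the log2 scale within the mm9 pair and 0.53 within the mm10 libraries, and NAC 1 and NAC 2 lay 0.42 and 0.55 above control 2.

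Bcl3 encodes an atypical IkB protein that acts in the nucleus as a partner of NF-kB dimers (NCBI gene 12051; chromosome 7 from 20393811 to 20408119, minus strand). It had 83.7 and 97.0 normalised CPM in control, 99.9 and 104.2 in PQ and 90.4 and 115.2 in NAC. The PQ libraries lay above both control libraries by little, whereas NAC 1 lay between the control libraries and NAC 2 above all others. The SD was 17.6 normalised CPM in NAC, the largest of any group for these genes. The log2 fold change was 0.18 in PQ (95% interval -0.07 to 0.42, adjusted p = 0.329, edgeR) and 0.18 in NAC (interval -0.06 to 0.43, adjusted p = 0.302), both against control. Bcl3, the most abundant of the 10 genes in control per length, was thus not called in any comparison. Its span overlaps the noncoding genes Gm16175 and Gm16174 on the opposite strand, so its reads may include theirs.

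Icam1 and Vcam1 encode the adhesion proteins that leukocytes bind on inflamed endothelium, and both are textbook targets of NF-kB. Icam1 (NCBI gene 15894; chromosome 9 from 20820404 to 20833241, plus strand) had 1 expected count in NAC 1 and 0 in every other library, out of 60565355 counts in all. A count of 0 allows up to 3 counts, or 0.305 CPM in control 1 and 0.310 in PQ 2, as counting error alone. Icam1 was thus not detectable at this depth in any group, with no fold change given, although its promoter window holds GGNNTTTCC at -153 and -84.

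Vcam1 (NCBI gene 22329; chromosome 3 from 115812938 to 115832606, minus strand), in contrast, was among the more abundant of the 10. It had 78.2 and 54.2 normalised CPM in control, 101.9 and 88.0 in PQ and 87.2 and 79.9 in NAC. Every treated library lay above both control libraries, but NAC 2 only just above control 1, and the control libraries lay far apart. PQ was 1.44 times control, a log2 fold change of 0.52 (SE 0.13, adjusted p = 0.0104, edgeR). The call was lost without PQ 1 (adjusted p = 0.143) and without control 2 (0.113), over a range of 3.94e-05 to 0.143 and log2 fold changes from 0.28 to 0.81.

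NAC against control gave a log2 fold change of 0.34 for Vcam1 (SE 0.14, adjusted p = 0.0927, edgeR), not called. It was called with the build in the notes as a covariate (adjusted p = 0.00548), with no filter on low values (0.0193) and without control 1 (0.00063), and was 0.656 at the other end of the range. PQ minus control was 0.38 on the log2 scale within the mm9 pair and 0.70 within the mm10 libraries, while control 2 lay 0.53 below control 1. NAC 1 and NAC 2 lay 0.68 and 0.56 above control 2. The size of the Vcam1 difference therefore depended on which control library was used. PQ against NAC gave 0.19 (95% interval -0.09 to 0.46, adjusted p = 0.311).

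Of the endothelial markers, Flt1 had 81.0 and 85.4 normalised CPM in control, 106 and 121.9 in PQ and 85.2 and 104.4 in NAC. It was called higher in PQ against control like Vcam1, at 0.45 on the log2 scale (adjusted p = 0.00772, but 0.110 without PQ 2), and gave 0.19 in NAC (0.272). The 10 markers summed to 13.2 and 14.1 FPKM in control, 17.5 and 19.9 in PQ and 14.2 and 17.8 in NAC, almost all of it Flt1, and without Flt1 to at most 1.10 FPKM in any library. Cldn5 had 0 counts in every library, and Cdh5, Kdr, Tie1 and Emcn at most 2. The part of these markers in the Vcam1 result was not tested.

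The other genes of the pathway were taken from 8 lists written from general knowledge, with earlier results of these data known. Their counts are those of the same edgeR fit. They are read beside the shares of all genes called, 9.76% higher and 9.45% lower in PQ against control and 9.01% and 9.64% in NAC against control. The counts of the Rel and IkB, IKK, adaptor and ubiquitin editor lists lie near those shares or rest on 1 or 2 genes, and are no result about the lists. The same holds for the adhesion list in PQ against control and for the ligand list in NAC against control.

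Of 6 other Rel and IkB genes, all tested, 1 was called higher in PQ against control and 0 lower, with 0 lower also by DESeq2, by limma and at an unadjusted p under 0.05, and a median log2 fold change of 0.07. It was Nfkbid, a nuclear IkB gene, with 1.25 and 1.01 normalised CPM in control, 3.34 and 3.13 in PQ and 1.76 and 1.98 in NAC. Nfkbid averaged 0.555 FPKM in control, 1.615 in PQ and 0.95 in NAC, so it passed the filter only through PQ. In PQ against control it gave 1.51 on the log2 scale (adjusted p = 0.00771, and 0.0712 without PQ 1, at a log2 fold change of 0.75 to 1.67 over the alternatives). Nfkbiz, the most abundant of this list, gave 0.11 in PQ (adjusted p = 0.466) and 0.05 in NAC (adjusted p = 0.797). In NAC 0 of the 6 were called by edgeR, DESeq2 or limma, and 0 at an unadjusted p under 0.05, with a median of 0.03.

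Of 10 IKK and upstream kinase genes, 9 were tested, and 1 was called higher and 0 lower in PQ against control (0 lower also by DESeq2, limma and unadjusted p), with a list median of 0.12. It was Ikbkg, the regulatory IKK subunit, with 44.0 and 45.2 normalised CPM in control and 60.6 and 60.2 in PQ, a log2 fold change of 0.44 (adjusted p = 0.00664, and 0.0632 without PQ 1). In NAC it was -0.21 (adjusted p = 0.202). Tab2, the most abundant, gave 0.08 in both comparisons with control. In NAC, with a median of 0.07, 0 were called by edgeR, DESeq2 or limma, beside 1 higher and 0 lower at an unadjusted p under 0.05.

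Of 15 adaptor genes, 13 were tested, with 2 higher and 1 lower in PQ against control (median 0.09) and 1 higher and 0 lower in NAC (median 0.07). In NAC 0 were lower by DESeq2 or limma and 1 at an unadjusted p under 0.05. Myd88, the adaptor of Toll-like and IL-1 receptors, was 0.80 above control on the log2 scale in PQ (adjusted p = 0.00444, but 0.0639 without PQ 1 and 0.0591 without control 1) and 0.79 in NAC (0.00407, but 0.0574 without control 1). Ticam1, the TLR3 adaptor, had 0.49 in PQ (adjusted p = 0.0102, but 0.144 without PQ 1) and 0.07 in NAC (0.761). Fadd, a death receptor adaptor, had -0.39 in PQ (adjusted p = 0.0307), a call kept in 8 of 13 alternative fits and lost with DESeq2 (0.0873), limma (0.0613) and without control 2 (0.122), PQ 1 (0.0964) or PQ 2 (0.183).

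Of 12 ubiquitin editor genes, all tested, 2 were called higher and 0 lower in PQ against control (median 0.16), Sharpin at 0.53 (adjusted p = 0.0150) and Tnip1 at 0.40 (0.0333), beside 0 with DESeq2 (0.0523 and 0.0892) and 2 with limma. At an unadjusted p under 0.05, 4 were higher and 0 lower. Without PQ 1 the adjusted p were 0.0988 and 0.326, without control 1 0.0530 and 0.120, and for Sharpin without PQ 2 0.0649. Rnf11, the most abundant of that list, gave 0.26 in PQ (0.125, and 0.0368 without control 1) and -0.29 in NAC (0.0866, but called with no filter at 0.0426 and without control 2 at 0.0187). In NAC (median 0.07) 0 were called by edgeR, DESeq2 or limma, beside 2 higher and 2 lower at an unadjusted p under 0.05.

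Of 14 receptor genes, 8 were tested, with 4 higher and 0 lower in PQ (median 0.31) and 4 higher and 1 lower in NAC (median 0.25), both against control. In PQ DESeq2 called 3 higher and limma 4, with 2 to 5 when 1 library was left out, the fewest without PQ 1, and 0 were lower by either tool or at an unadjusted p under 0.05. In NAC limma called 0 lower. Tlr2 had 2.19 and 2.32 normalised CPM in control, 10.9 and 7.31 in PQ and 11.1 and 10.3 in NAC. Tlr2 averaged 0.765 FPKM in control, 3.16 in PQ and 3.75 in NAC, so it passed the filter only through the treated groups. Its log2 fold change was 2.01 in PQ (adjusted p = 4.01e-05) and 2.24 in NAC (5.19e-06), and for Tlr3 it was 0.77 (0.00041) and 0.88 (6.43e-05), all kept in all 13 alternative fits. Il1rap gave 0.48 in NAC (0.000876) and 0.26 in PQ (0.0572). Tnfrsf1b gave -0.80 in NAC (0.0128, but 0.136 without control 2, 0.206 without NAC 1 and 0.101 with limma) and 0.25 in PQ (0.419, but called without control 2 at 0.0475). The other receptor genes called were Tnfrsf1a, at 0.38 in PQ (0.00784, but 0.125 without PQ 1) and 0.32 in NAC (0.0189, but 0.0584 without control 2, 0.0611 without NAC 1 and 0.124 without NAC 2), and Tnfrsf12a. Tnfrsf12a gave 0.37 in PQ (0.0280, but 0.066 with DESeq2, 0.0843 without control 1 and 0.343 without PQ 1) and -0.33 in NAC (0.0561, but called with no filter at 0.0491).

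Of 12 ligand genes, 4 were tested, with 3 higher and 1 lower in PQ against control (median 0.55) and 1 higher and 1 lower in NAC (median 0.17). Tnf had at most 2 counts, Il1a at most 3 and Il1b at most 1 in any library, so the classical inducing cytokines were near or at the floor of detection. Il33 was called higher in PQ at 0.71 (adjusted p = 4.01e-05) and lower in NAC at -0.54 (0.000397). Il18 was 0.57 in PQ (0.0170, but 0.140 without control 2 and 0.142 without PQ 2), Tnfsf12 0.53 in PQ (0.0153, but 0.204 without PQ 1 and 0.0748 without control 2) and Hmgb1 -0.47 in PQ (0.00327, but 0.0851 without PQ 1). In NAC Tnfsf12 was 0.43 (0.0468, called in 6 of 13 alternative fits and lost in the others, such as DESeq2 at 0.113 and without NAC 2 at 0.308), Il18 0.20 (0.449) and Hmgb1 0.15 (0.360).

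Of 30 classical target genes, 24 were tested, with 17 higher and 0 lower in PQ against control and a median log2 fold change of 0.67. DESeq2 and limma each called 15 higher and 0 lower, and 0 were lower at an unadjusted p under 0.05. Without PQ 1, 10 were called higher. In NAC 11 were higher and 3 lower, with a median of 0.45. DESeq2 called 11 higher and 1 lower, limma 10 higher and 1 lower, and leaving out 1 library gave 10 to 13 higher and 1 to 3 lower. Ccl2, a monocyte chemokine, was 1.56 in PQ (adjusted p = 3.35e-07) and 0.89 in NAC (4.42e-05), and Cxcl10, a T cell chemokine, 1.48 (9.46e-08) and 0.74 (4.53e-05). Gadd45b, a stress response gene, was 1.52 in PQ (2.98e-05) and 1.43 in NAC (3.08e-05). Ptgs2, which encodes cyclooxygenase, was 1.48 in PQ (8.19e-05) and 0.85 in NAC (0.00872, but 0.121 without control 2 and 0.0624 without NAC 2).

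The 3 targets lower in NAC were Nos2, Plau and Gch1. Nos2 gave -1.32 (adjusted p = 3.42e-05, called in all 13 alternative fits) and 0.63 in PQ (0.00943, but 0.0519 without control 1, 0.127 without PQ 2 and 0.0558 with limma). Plau gave -1.14 in NAC (0.0432, called in 8 of 13, but 0.130 with DESeq2, 0.122 with limma, and 0.187, 0.171 and 0.132 without control 1, NAC 1 and NAC 2). Gch1 gave -1.11 in NAC (0.0353, called in 9 of 13, but 0.0948 with DESeq2, 0.120 with limma, 0.212 without control 1 and 0.243 without NAC 2). The single targets lower by DESeq2 and by limma were thus Nos2.

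Of 22 adhesion relatives and integrin partners, 11 were tested, with 1 higher and 2 lower in PQ and 3 higher and 3 lower in NAC, and medians of -0.03 and -0.19. In NAC DESeq2 called 2 higher and 3 lower, and limma 2 higher and 2 lower. Itga4, whose product pairs with that of Itgb1 to bind VCAM1, was called lower in both, at -0.56 in PQ (adjusted p = 0.000913) and -0.57 in NAC (0.00054). Itga9, another VCAM1-binding integrin gene, was -0.50 in PQ (0.00222, but 0.0518 without PQ 2) and 0.57 in NAC (0.000455). Sele was 1.30 in NAC (0.000909) from 2.60 and 3.44 normalised CPM in control to 7.15 and 7.84, and 0.55 in PQ (0.172). Ncam1 was -0.51 in NAC (0.00099) and -0.10 in PQ (0.539). Cd44 was the gene called higher in PQ, at 0.38 (0.00527), and was -0.29 in NAC (0.0245, called in 8 of 13 alternative fits, but 0.103 with the build as a covariate, 0.0707 with limma, and 0.0959, 0.0683 and 0.181 without control 1, NAC 1 and NAC 2). Mcam gave 0.45 in NAC (0.0484, called in 4 of 13, over a range of 0.0102 to 0.360).

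In PQ against NAC, where 16% of all genes were called higher and 15.7% lower, the targets had 11 higher and 2 lower (median 0.33), beside 8 and 2 with DESeq2 and 9 and 1 with limma, and 7 to 13 higher and 1 to 2 lower with 1 library left out. Nos2 at 1.94 (adjusted p = 1.59e-07), Tnfaip2 at 1.48 (8.37e-07) and Ccl5 at 1.11 (0.00193) were higher in PQ in all 13 alternative fits, whereas Plau at 1.14 (0.0269) was called in 8 of 13, over a range of 0.00576 to 0.362. C3 was lower at -0.88 (0.00145, in all 13) and Junb at -0.33 (0.0320, in 8 of 13, up to 0.505). Of the ligands, Il33 was 1.25 (2.23e-08) and Hmgb1 -0.62 (0.000149), and of the receptors, 2 were higher, Tnfrsf1b at 1.05 (0.000809) and Tnfrsf12a at 0.70 (0.000127), all in all 13. With all libraries, no receptor was lower by edgeR, DESeq2 or limma, beside 1 at an unadjusted p under 0.05. The medians were 0.24 for ligands and -0.02 for receptors.

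In the same comparison Ikbkg was the 1 IKK gene called, at 0.64 (0.000129, in all 13), with a list median of 0.05. Of the ubiquitin editors (median 0.12), 3 were higher: Cyld at 0.56 (0.00442, but 0.0844 without PQ 2), Rnf11 at 0.55 (0.00114, in all 13) and Sharpin at 0.42 (0.0313, in 7 of 13, up to 0.209). Of the adaptors (median -0.02), Ticam1 was 0.42 (0.0150) and Xiap -0.33 (0.0228), each lost with the build as a covariate (0.0551 and 0.0885), without PQ 1 (0.154 and 0.307) and without NAC 1 (0.2 and 0.214). The adhesion list (median 0.07) had 3 higher and 2 lower: Icam5 at 1.18 (0.00899, in 9 of 13, up to 0.103), Cd44 at 0.67 (1.19e-05, in all 13), Ncam1 at 0.41 (0.00335, but 0.0740 without PQ 2 and 0.0557 without NAC 1), Itga9 at -1.07 (3.39e-07, in all 13) and Sele at -0.75 (0.0178, in 7 of 13, up to 0.126). Icam5 averaged 0.91 FPKM in control, 1.46 in PQ and 0.655 in NAC, so it passed the filter only through PQ. For IKK and ubiquitin genes, with all libraries, 0 were lower by edgeR, DESeq2 and limma, beside 1 and 0 at an unadjusted p under 0.05. Of the other Rel and IkB genes (median 0.03), 0 were called by any of these tools, beside 1 higher at an unadjusted p under 0.05. Apart from the targets, the list counts in PQ against NAC rest on at most 3 genes in each direction and are no result about the lists.

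**Figure D5:**
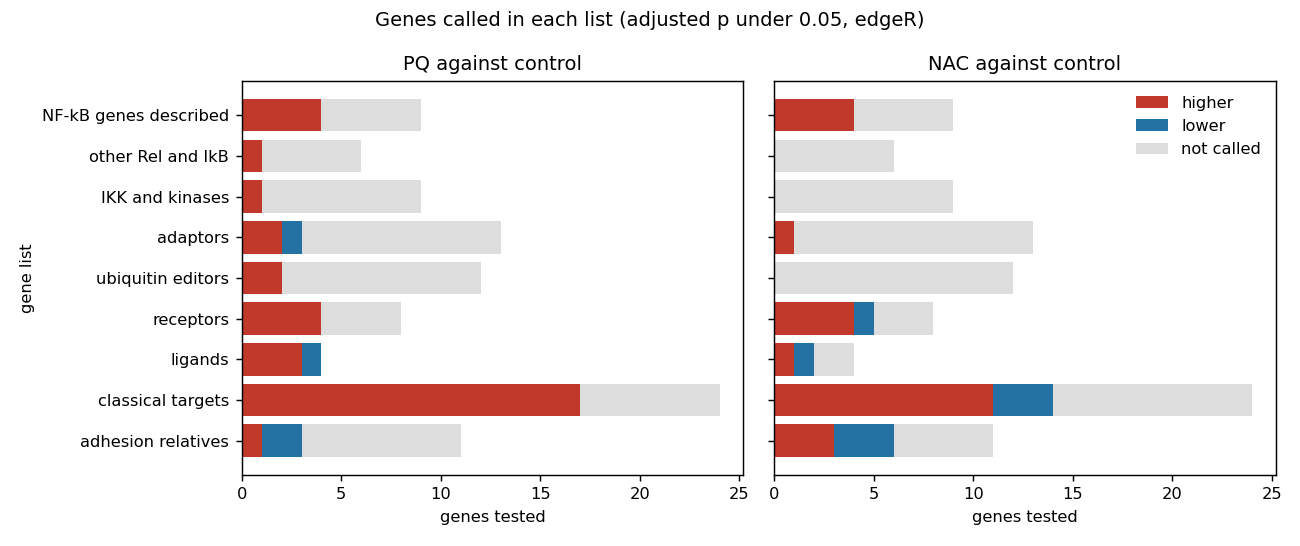
Number of genes tested in each list, with red for called higher, blue for called lower and grey for not called (adjusted p under 0.05, edgeR), in PQ against control and NAC against control. The classical targets have the most calls, with 17 of 24 higher in PQ, and 11 higher and 3 lower in NAC (1 lower by DESeq2 and by limma).

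Markers of cell types are given beside the NF-kB genes. Of the 12 NSPC markers tested, 1 was called higher and 3 lower in PQ against control, and 3 higher and 3 lower in NAC. Their median log2 fold changes were -0.21 and 0.11. Vim gave -0.75 in NAC (adjusted p = 3.77e-06, edgeR) and 0.18 in PQ (0.139). It averaged 2247 FPKM in control, 2597 in PQ and 1376 in NAC. All 6 markers of mature astrocytes had a mean of at least 1 FPKM over the 6 libraries. Of these astrocyte markers, 3 were called higher and 1 lower in NAC against control, and 2 were called higher in PQ. Their median log2 fold changes were 1.13 and 0.15. Their summed level was 175 and 175 FPKM in control, 203 and 218 in PQ and 204 and 203 in NAC, led by Gja1 at a mean of 127 FPKM. Without Gja1 the sums were 46.2 and 51.2 in control, 49.5 and 52.7 in PQ and 106 and 107 in NAC. Higher in NAC were Aqp4 at 1.76 (adjusted p = 1.36e-05), Gfap at 1.23 (0.000315) and Aldoc at 1.09 (3.57e-07), and lower was Gja1 at -0.43 (0.00217), all in all 13 alternative fits. Aqp4 averaged 0.745 FPKM in control, 0.685 in PQ and 2.61 in NAC, so it passed the filter only through NAC. S100b averaged 0.635 FPKM in control, 1.015 in PQ and 1.475 in NAC, and its mean of 1.042 passed the filter mostly through NAC. S100b gave 1.17 in NAC (adjusted p = 0.0744, edgeR), not called. The NAC median of the astrocyte markers includes both Aqp4 and S100b. Aldh1l1 gave -0.49 in NAC (0.306). Higher in PQ were Aldh1l1 at 1.17 (0.0035, but 0.0912 without PQ 1) and Gja1 at 0.31 (0.0197, but 0.0759 without control 2, 0.0551 without PQ 1 and 0.189 without PQ 2). Microglia markers summed to 3.35 and 3.03 FPKM in control, 6.34 and 5.02 in PQ and 6.06 and 4.76 in NAC, with 8 of 12 at most 3 counts in every library. P2ry12 led in the mean over all libraries, whereas in PQ the mean was 2.255 FPKM for Cd68 and 2.08 for P2ry12. P2ry12 was called higher in NAC at 1.18 (0.00329, but 0.0896 without NAC 1) and gave 0.55 in PQ (0.191), and Cd68 gave 1.05 in PQ (0.0934, but called with limma at 0.0391) and 0.15 in NAC (0.863). The part of any of these markers in the levels of the NF-kB genes was not tested.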

How the data were processed

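RNA-seq of 6 libraries (control, PQ and NAC, 2 each) was analysed from gene tables, in which the authors deposited an expected count, an estimate that need not be whole, and an FPKM value, scaled by the authors to transcript length and library total. The submitters' processing notes name TopHat2 2.0.11, Cufflinks 2.1.1 and mm9 for control 1 and PQ 1, and HISAT2 2.0.4, Bowtie2 2.2.5, RSEM and mm10 for the others. All tables list the same transcripts per gene. Of the list genes called, Hmgb1, Ikbkg, Itga4, Itga9, Tnfrsf1b, Fadd, Cyld and Ncam1 had fractional expected counts in all 6 libraries. Part of their counts may therefore come from reads shared with other loci, which was not tested. The use of strand in counting is not given in the sources used here. Genes left out of a table were taken as 0, and totals ranged from 9680436 to 10698241 counts.

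Expected counts were rounded, normalised by TMM and tested with edgeR 4.0.16 in R 4.3.3 (glmQLFit and glmQLFTest, group means, all 6 libraries, two-sided) on 11717 genes whose FPKM averaged 1 or more, and p-values were adjusted over all of them by Benjamini-Hochberg. Standard errors were the log2 fold change divided by the square root of F. Alternatives were DESeq2 1.42.0 size factors and test, no filter, filterByExpr, only the 4 libraries compared, the build in the notes as a covariate, leaving out each library, and limma 3.58.1 on log2(FPKM + 1). Where this left 1 library in a group, it was taken to vary like the other groups. Values within 1 build's notes are differences of log2 normalised CPM, with no test.

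Symbols came from NCBI gene identifiers, for 99.7% of genes. Gene coordinates are GENCODE vM1 on mm9, and promoter sequences and their coordinates are RefSeq, GRCm38.p6, and none was converted. The members and lists were chosen with earlier results of these data known. All 10 members are named. Of each list, up to 4 genes with the largest absolute log2 fold change among those called against control are named, or, where fewer than 3 were called, those and the most abundant. Tnf, Il1a, Il1b, the marker genes and Cdkn2a are named for their roles. Among the markers, those given with a value or count were chosen after their values were seen, as were Tnfrsf1a, Tnfrsf12a, Nos2, Plau, Gch1, Cd44 and Mcam, which make up small counts, and the list genes named in PQ against NAC.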

Additional observations from a re-analysis of the deposited data

How the results depend on the processing

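Nfkbia in PQ and in NAC, and Tnfaip3 in PQ, all against control, kept their call and direction in all 13 alternative fits. The number of the 9 genes called in NAC against control was 4 and fell to 2 with DESeq2. There, edgeR with the build as a covariate lost Relb (adjusted p = 0.0508) and Nfkb1 (0.0982) and gained Vcam1 (0.00548). With no filter on low values edgeR gained Vcam1 (0.0193). In PQ against NAC the number called was 1, and 2 with no filter on low values or with only the 4 libraries compared. Over the fits that each left out 1 library, it ranged from 2 to 4 in PQ against control, from 1 to 4 in NAC against control and from 0 to 2 in PQ against NAC. The cause was not tested beyond the smaller number of libraries. Genome-wide, the same fits called from 866 to 2206 genes in PQ against control (2250 with all libraries), from 1286 to 2126 in NAC against control (2186) and from 2343 to 4207 in PQ against NAC (3708), the lowest without PQ 1, NAC 1 and PQ 1.

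No value whose sign turned was called in the fit that turned it. For limma, Nfkb2 in PQ against control was 0.02. With the build as a covariate, Bcl3 in PQ against NAC was 0.06 and Vcam1 -0.00. Without 1 library, ranges that crossed 0 were, in PQ against control, -0.13 to 0.05 for Nfkb1, -0.04 to 0.03 for Nfkb2, -0.00 to 0.24 for Nfkbiz and -0.01 to 0.58 for Tnfrsf1b. Plau (-0.50 to 0.41), Gch1 (-0.51 to 0.26), Gfap (-0.23 to 0.15), Aqp4 (-0.49 to 0.14) and Aldoc (-0.09 to 0.07), none called in PQ, crossed 0 over the 13 fits. In NAC against control the ranges were -0.19 to 0.03 for Nfkb2, -0.00 to 0.35 for Bcl3, -0.07 to 0.17 for Nfkbiz, -0.07 to 0.20 for Ticam1 and -0.00 to 0.42 for Il18. In PQ against NAC they were -0.03 to 0.19 for Nfkb2, -0.05 to 0.33 for Nfkbie, -0.01 to 0.13 for Tnfaip3 and -0.17 to 0.18 for Bcl3. By CPM in place of FPKM, the control order ran Bcl3, Rela, Vcam1 and Nfkbia from the top. No paired analysis was possible because the labels carry no replicate numbers, other than the fit with the build in the notes as a covariate, which compares PQ with control within the labelled sets and kept all 4 calls (adjusted p = 0.000405 for Nfkbia, 0.00453 for Tnfaip3, 0.0329 for Rela and 0.00181 for Vcam1). Icam1 lay below the floor of 3 counts.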
